A study of Homo sapiens with 12 samples.

Results

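The nuclear-encoded subunits of the mitochondrial respiratory chain and of ATP synthase were followed at the mRNA level in cells labelled HepG2. Treated cultures received acriflavine, an acridine dye mixture that binds DNA and is known to block hypoxia-inducible factor 1. The members were the protein-coding genes whose symbols begin with NDUFA, NDUFB, NDUFC, NDUFS or NDUFV (the NDUFAF assembly factors left out), SDHA to SDHD, CYC1, and the genes beginning with UQCR, COX4 to COX8 or ATP5. This rule gave 92 genes of the 63152 in the table. Complex I held 38 of them, complex II 4, complex III 10, complex IV 19 and complex V, the ATP synthase, 21. NDUFA4 and NDUFA4L2 were counted with complex IV, where the NDUFA4 protein resides. Enough reads for a test were found for 83 members, namely 37, 4, 10, 12 and 20 in complexes I to V.

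Poly-A RNA was sequenced from 3 groups of 4 libraries, each harvested after 24 h: control, 2.5 µM acriflavine and 5 µM acriflavine. The labels give the line as HepG2, a human liver cancer line, but the sample descriptions name HepG2S1, a line that was made resistant to sorafenib by long exposure. All 3 groups would share that background, and all came from 1 line. Controls are described both as untreated and as given the vehicle DMSO. Library totals ran from 10733567 to 15116842 counts, and the members took 1.29% to 1.37% of each library. Of 11 hepatocyte markers, 10 were under 1 CPM (counts scaled to the size of the library) in the controls, and ALB, AFP, APOH and TF had 0 counts there. All 5 endothelial and all 5 blood markers were also under 1 CPM in the controls, as were 5 of 6 striated muscle markers and 2 of 6 fibroblast markers. The summed CPM of the endothelial list spanned 0.169 to 0.537 in the control libraries, then 0.616 to 1.36 at the lower dose and 7.13 to 8.69 at the higher. The blood list spanned 0.448 to 1.1, 0.757 to 1.31 and 3.56 to 4.54. For hepatocyte markers the ranges were 2141 to 2245, 1767 to 1797 and 936 to 971, for fibroblast markers 619 to 769, 548 to 605 and 557 to 599, and for muscle markers 35.8 to 44.5, 36.1 to 38.8 and 43.2 to 45.0. In the controls CPS1 made up 99.9% of the hepatocyte sum, TNNT1 99.7% of the muscle sum and DCN 79.4% of the fibroblast sum. Without CPS1 the hepatocyte sums of the 3 groups spanned 0.879 to 1.69, 1.06 to 2.22 and 9.19 to 12.2. Apart from CPS1, the hepatocyte markers thus do not bear out a liver line, and the identity of the cells was not tested. The part of these lists in the results was not tested. In these bulk cultures, a change in cell makeup and a change in mRNA per cell cannot be told apart.

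The respiratory chain moves electrons from NADH through complex I, and from succinate through complex II, to coenzyme Q, then through complex III and cytochrome c to complex IV, which reduces oxygen. Complexes I, III and IV pump protons, and complex V lets them flow back through a ring of c subunits to make ATP. Complexes I, III, IV and V combine a few subunits made from mitochondrial DNA with many that are encoded in the nucleus, while complex II is wholly nuclear-encoded. HepG2 cells in culture rely strongly on glycolysis but keep a working chain. Whether this holds for the cells used here was not tested.

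At 5 µM the members went both ways: 29 were higher than in controls, 35 were lower and 19 did not pass the test (edgeR's quasi-likelihood test, adjusted p under 0.05 over all 16839 genes tested). Of all genes tested, 78.2% changed at this dose, 38.7% upward and 39.4% downward, so the members' 64 changes of 83 stood near the background. Their changes were small: the median size was 0.25 on the log2 scale against 0.55 for all genes, and 5 of 83 changed at least 2-fold (ATP5MC2, NDUFB10, ATP5F1D, NDUFV2 and NDUFA7) against 26.4% of all genes. Without the 4 members under 5 CPM, NDUFV2 and NDUFA7 among them, this was 3 of 79. The 4 and 4 libraries did not overlap for 57 members, where this held for 70.8% of all genes. Scaling by library size, which shifts the median of all genes from -0.01 to 0.12, turned the members' split to 41 higher and 27 lower. The other scalings gave 30 and 32 (RLE) and 34 and 31 (upper quartile).

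The complexes differed in their split. Complexes V and I leaned downward, with 4 higher and 12 lower of 20 for complex V (median log2 fold change -0.27) and 9 higher and 18 lower of 37 for complex I (-0.08). Complexes II, III and IV leaned upward, with 3 higher and 0 lower of 4, 6 and 3 of 10, and 7 and 2 of 12, and medians of 0.27, 0.12 and 0.14. The median of all genes tested was -0.01. By library size, complex V stayed lower (6 higher, 11 lower, median -0.14), while complex I turned to 16 higher and 11 lower (median 0.06) and complexes II, III and IV stayed higher. These splits and medians are descriptions, with no test of 1 complex against another.

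**Figure D1:**
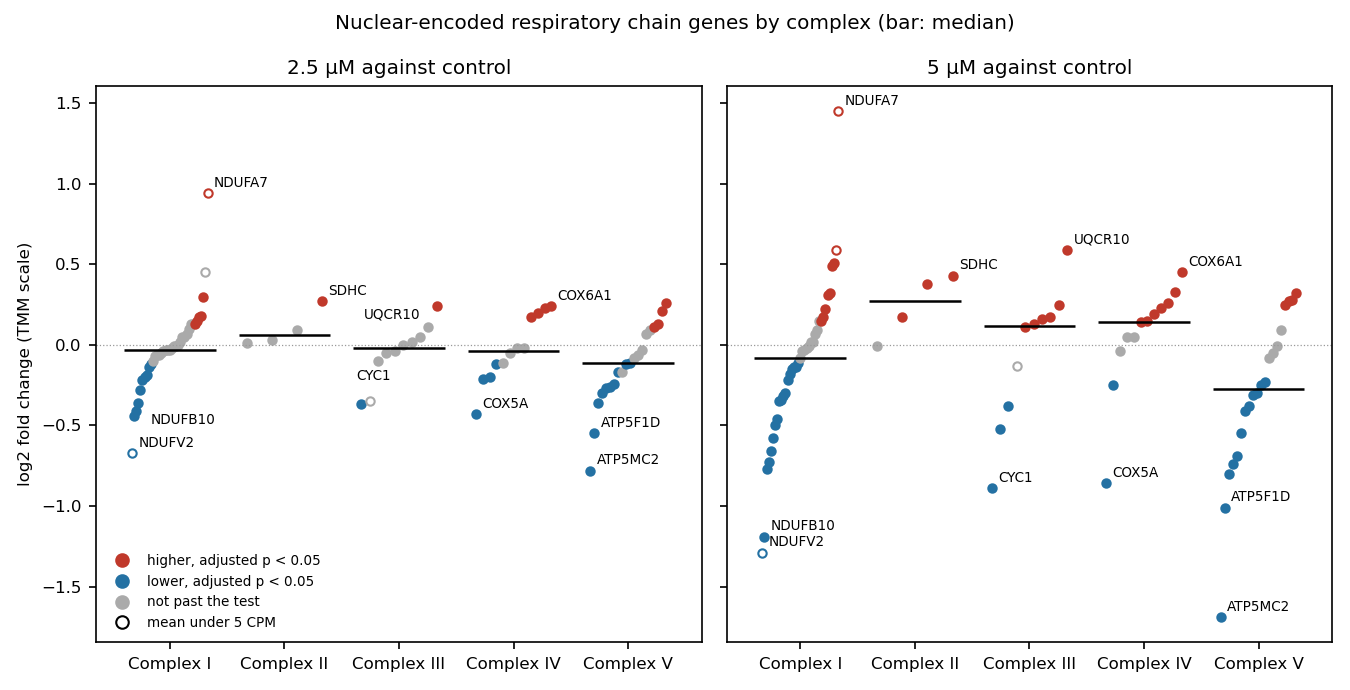
Log2 fold change (TMM scale) of each tested member, by complex, at 2.5 µM (left) and 5 µM (right) against control. Each point is 1 gene, coloured by its call, open where its mean is under 5 CPM, and the bar is the complex's median. At 5 µM ATP5MC2 lies lowest at -1.69, and the medians of complexes I and V lie below 0; by library size scaling that of complex I is above 0.

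The largest decrease of all members was in the membrane ring of ATP synthase. ATP5MC2 is 1 of 3 genes that encode the same mature c subunit, the rotor through which protons pass. Its CPM was 307, 303, 320 and 314 in the 4 controls, 182, 172, 183 and 189 at 2.5 µM, and 102, 99.2, 95.3 and 89.9 at 5 µM. The 3 groups did not overlap, and each dose was lower than the one before. The log2 fold change was -1.69 ± 0.05 (SE) at 5 µM against control (adjusted p = 2.36e-25), a 3.22-fold decrease, and -0.78 ± 0.05 at 2.5 µM (adjusted p = 5.67e-16).

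The other c-subunit genes fell as well, so that all 3 were lower at both doses. ATP5MC3 had 231, 238, 253 and 249 CPM in controls, 185, 185, 187 and 200 at 2.5 µM, and 145, 141, 140 and 131 at 5 µM (-0.80 ± 0.05, adjusted p = 6.30e-17). ATP5MC1 had 127, 135, 149 and 142 CPM in controls, 120, 115, 107 and 119 at 2.5 µM, and 111, 108, 104 and 93.4 at 5 µM (-0.41 ± 0.06, adjusted p = 6.06e-08). For ATP5MC3 the 3 groups were apart, while the 2 dose groups of ATP5MC1 overlapped. The step of ATP5MC1 from 2.5 to 5 µM (-0.15, adjusted p = 0.0200) was lost in DESeq2 (adjusted p = 0.118), under the other 3 scalings, and on leaving out 2.5 µM library 1 or 4 or 5 µM library 3 or 4 (adjusted p 0.0538, 0.0603, 0.0565 and 0.172).

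Among the F1 subunits, the part of ATP synthase that makes ATP, 4 of 5 fell and 1 rose at 5 µM. ATP5F1D, the delta subunit of the central stalk, had 90.9, 92.4, 110 and 116 CPM in controls, 69.4, 72.8, 65.6 and 70.3 at 2.5 µM, and 49.8, 50.2, 56.1 and 47.1 at 5 µM. It fell at each dose, and its log2 fold change at 5 µM was -1.01 ± 0.07 (adjusted p = 4.99e-14). The catalytic core also fell: ATP5F1A, the alpha subunit, went from 1014 ± 27.8 CPM (SD, n = 4) to 841 ± 23.3 and 605 ± 15.4. ATP5F1B, the catalytic beta subunit, went from 2008 ± 88.5 to 1784 ± 70.4 and 1622 ± 29.2 CPM. In both genes the 3 groups were apart. Their decreases at 5 µM were -0.74 ± 0.04 (adjusted p = 1.55e-17) and -0.31 ± 0.04 (adjusted p = 7.83e-08). ATP5F1C, the gamma subunit, was lower by a smaller size (-0.25 ± 0.04). ATP5F1E, the small epsilon subunit, was higher (0.25 ± 0.05, adjusted p = 1.41e-05), with 148, 144, 144 and 136 CPM in controls and 169, 165, 165 and 182 at 5 µM. From 2.5 to 5 µM the step of ATP5F1B was small (-0.14 ± 0.04, adjusted p = 0.00532). In this step 4 of the 5 F1 genes were lower, but only 2 by upper quartile or library size scaling.

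The peripheral stalk and the membrane part were mixed. ATP5PO, which joins the stalk to F1, fell from 131 ± 8.94 to 81.5 ± 4.55 CPM at 5 µM (-0.69 ± 0.05, adjusted p = 1.57e-13). ATP5MG, the g subunit at the dimer interface, had 245, 258, 270 and 258 CPM in controls, 303, 290, 308 and 292 at 2.5 µM, and 329, 310, 323 and 323 at 5 µM. ATP5MG was higher at 5 µM than in controls by 0.32 ± 0.04 (adjusted p = 4.39e-08). Its step from 2.5 to 5 µM (0.11, adjusted p = 0.0281) was lost without a count filter (adjusted p = 0.101) and on leaving out 2.5 µM library 1, 2 or 4 or 5 µM library 1 (adjusted p 0.0519, 0.117, 0.0714 and 0.0706). ATP5IF1 is the inhibitor that binds F1 and slows ATP hydrolysis. It had 121, 116, 124 and 111 CPM in controls, 139, 142, 140 and 144 at 2.5 µM, and 140, 143, 139 and 151 at 5 µM. Its rise was as large at 2.5 µM (0.26 ± 0.05, adjusted p = 1.50e-05) as at 5 µM (0.28 ± 0.05, adjusted p = 2.23e-06), and the dose groups overlapped.

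Complex I has 7 nuclear-encoded core subunits, which carry the flavin and the iron-sulfur clusters, and many accessory subunits. Of the 7 core genes, 0 were higher and 5 were lower at 5 µM (median -0.50). Of 30 accessory genes, 9 were higher and 13 lower (-0.03). By library size the core genes stood at 2 higher and 4 lower. The 5 lower core genes include NDUFV2, which had a mean of only 1.27 CPM and is read apart below. They also include NDUFV1 (-0.11 ± 0.05, adjusted p = 0.0423), whose control and 5 µM libraries overlapped. NDUFS8, an iron-sulfur subunit, had 124, 109, 130 and 114 CPM in controls, 91.6, 93.4, 86.2 and 99.7 at 2.5 µM, and 75.9, 72.1, 70.8 and 68.6 at 5 µM (-0.73 ± 0.06, adjusted p = 1.93e-13). Its 3 groups were apart and in dose order. NDUFS1, the largest core subunit, averaged 181 CPM in controls, 183 at 2.5 µM and 128 at 5 µM (-0.50 ± 0.04, adjusted p = 1.81e-12), whereas NDUFS3 (-0.02) and NDUFS7 (0.02) did not pass at 5 µM.

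The largest decrease in complex I at a level above 5 CPM was in an accessory subunit of the membrane arm. NDUFB10 had 134, 136, 157 and 142 CPM in controls, 103, 109, 99.9 and 107 at 2.5 µM, and 57.9, 63.0, 66.3 and 61.0 at 5 µM. The groups were apart at each step, and the fall at 5 µM was 2.29-fold (log2 -1.19 ± 0.06, adjusted p = 1.81e-19). NDUFV3, a subunit of the NADH-binding module, had 58.2 to 67.6 CPM in the control libraries, then 53.0 to 57.4 at the lower dose and 33.3 to 40.0 at the higher (-0.77 ± 0.06, adjusted p = 6.43e-13).

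Other accessory subunits rose. NDUFA9, which sits where the 2 arms of complex I meet, had 105, 118, 121 and 116 CPM in controls, 144, 135, 136 and 150 at 2.5 µM, and 166, 161, 163 and 164 at 5 µM (0.51 ± 0.05, adjusted p = 3.07e-11). NDUFB1, of the membrane arm, had 43.0, 44.3, 52.9 and 51.4, then 49.1, 45.9, 56.7 and 53.5, then 67.8, 67.6, 67.2 and 65.3 CPM (0.49 ± 0.07, adjusted p = 8.50e-08). NDUFA9 climbed at each dose, whereas the control and 2.5 µM libraries of NDUFB1 overlapped and the 5 µM libraries stood above both. NDUFB3 was also higher at 5 µM (0.32 ± 0.06, adjusted p = 1.48e-05), with 61.3 to 68.7 CPM in controls and 76.3 to 92.9 at 5 µM. Among the 11 NDUFB genes, all of the membrane arm, 5 were thus higher and 5 lower (5 and 2 by library size). The 13 NDUFA genes stood at 4 higher and 2 lower (median 0.07, and 9 and 0 by library size). Among these 4 higher genes were NDUFA7 and NDUFA13, with means of only 1.15 and 2.32 CPM. The 8 NDUFS genes stood at 0 higher and 6 lower (median -0.41, and 2 and 6 by library size).

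**Figure D2:**
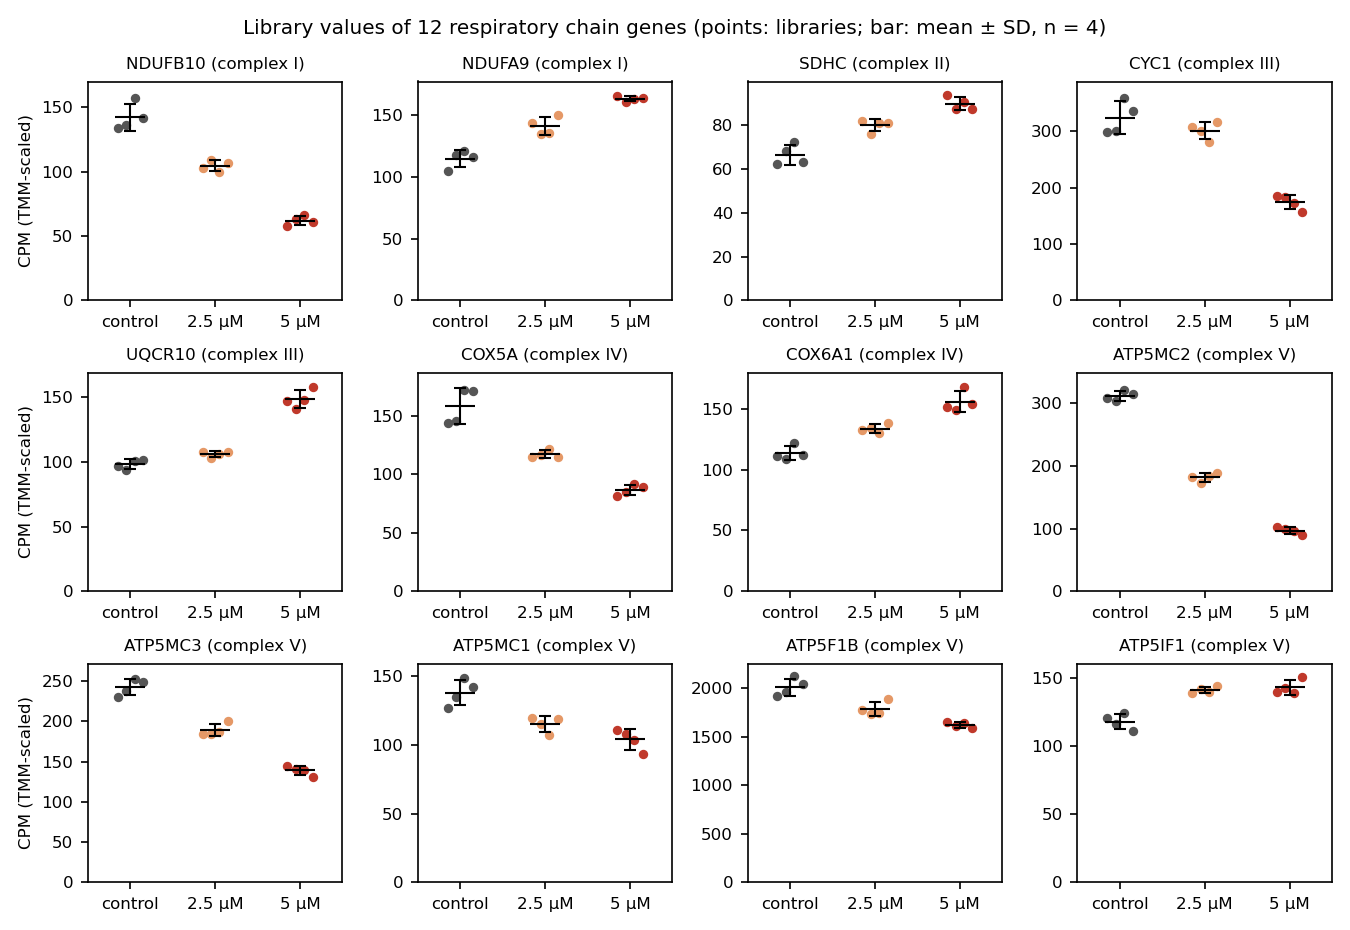
TMM-scaled CPM of 12 members in each library; points are libraries and the bars show the mean ± SD of 4. NDUFB10, COX5A and the c-subunit genes step down with dose, CYC1 drops at 5 µM only, and NDUFA9, SDHC and COX6A1 step up.

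Complex II, which oxidizes succinate and also serves the tricarboxylic acid cycle, had 3 genes higher and 0 lower of 4 at 5 µM. SDHC and SDHD form its membrane anchor. SDHC had 62.3, 68.2, 72.2 and 63.1 CPM in controls, 81.9, 76.0, 81.2 and 80.9 at 2.5 µM, and 93.6, 87.3, 90.8 and 87.4 at 5 µM, with the 3 groups apart (0.43 ± 0.05 at 5 µM, adjusted p = 1.07e-08). SDHD had 95.6, 94.0, 95.4 and 85.5, then 93.4, 101, 105 and 96.4, then 114, 119, 124 and 124 CPM (0.38 ± 0.05, adjusted p = 6.66e-08), so that the 5 µM libraries were clear of the controls and the 2.5 µM libraries were not. The catalytic subunits moved less. SDHA, the flavoprotein, had 384 to 425 CPM in the control libraries, then 393 to 430 at the lower dose and 441 to 466 at the higher (0.17 ± 0.04, adjusted p = 7.65e-04). SDHB, the iron-sulfur subunit, had 125 to 139, 132 to 143 and 130 to 138 CPM (-0.01 ± 0.05, adjusted p = 0.901); by library size SDHB came out higher, at 0.13.

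In complex III the 3 genes lower at 5 µM were CYC1, UQCRC1 and UQCRC2, and 6 genes were higher. UQCRFS1 (0.16 ± 0.05, adjusted p = 0.00420) and UQCRH (0.13 ± 0.05, adjusted p = 0.0128) were among the higher, both with overlapping libraries. UQCRHL, a near copy of UQCRH, was also among them (0.11 ± 0.05, adjusted p = 0.0279). UQCR11 did not pass (-0.13 ± 0.27, adjusted p = 0.660). CYC1, the cytochrome c1 that hands electrons to cytochrome c, had 299, 301, 360 and 336 CPM in controls, 307, 301, 281 and 316 at 2.5 µM, and 185, 183, 173 and 157 at 5 µM. Control and 2.5 µM libraries overlapped and did not pass the test (-0.10 ± 0.06, adjusted p = 0.118), though this comparison passed on leaving out control library 1 or 2 (adjusted p 0.0396 and 0.0431). The fall came between the doses: -0.79 ± 0.06 for 5 against 2.5 µM (adjusted p = 1.62e-12) and -0.89 ± 0.06 against control (adjusted p = 4.25e-14). UQCRC2, a core subunit facing the matrix, showed the other order, with 356, 367, 378 and 345 CPM in controls, 268, 280, 275 and 297 at 2.5 µM, and 246, 242, 249 and 270 at 5 µM. Most of its fall was present at 2.5 µM (-0.37 ± 0.05, against -0.52 ± 0.05 at 5 µM, adjusted p = 2.08e-08 and 3.12e-12). Its partner UQCRC1 had 267 to 309, 257 to 295 and 205 to 228 CPM, and thus fell at the higher dose (-0.38 ± 0.05, adjusted p = 3.18e-08).

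UQCR10, a small subunit of complex III, had the largest increase of any member above 5 CPM. Its CPM was 97.1, 93.7, 101 and 102 in controls, 108, 103, 106 and 108 at 2.5 µM, and 147, 141, 148 and 158 at 5 µM (0.59 ± 0.05, adjusted p = 5.31e-13). The 2.5 µM libraries lay above the controls without passing the test (0.11 ± 0.05, adjusted p = 0.0564). UQCRQ, another small subunit, had 281 to 325, 298 to 311 and 347 to 363 CPM (0.25 ± 0.05 at 5 µM, adjusted p = 1.24e-05). UQCRB was higher at 5 µM by 0.17 ± 0.07 (adjusted p = 0.0242), with 84.3 to 87.3 CPM in the control libraries, then 86.7 to 120 at the lower dose and 90.9 to 104 at the higher. This call was lost without control library 2, 3 or 4 or 5 µM library 4 (adjusted p 0.0612, 0.0998, 0.0587 and 0.10).

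Complex IV leaned upward among its nuclear subunits, with COX5A as the main exception. COX5A, a matrix-side subunit, had 144, 146, 172 and 171 CPM in controls, 115, 117, 122 and 115 at 2.5 µM, and 81.5, 84.9, 91.4 and 89.4 at 5 µM. The groups were apart and in dose order (-0.86 ± 0.06 at 5 µM, adjusted p = 1.60e-15). The other member that fell was COX7A2L, which bridges complexes III and IV in supercomplexes, at 150 to 172, 134 to 141 and 132 to 137 CPM (-0.25 ± 0.05, adjusted p = 1.96e-05).

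The increases in complex IV were led by COX6A1, COX6B1 and COX8A. COX6A1 had 111, 109, 122 and 112 CPM in controls, 132, 134, 130 and 138 at 2.5 µM, and 151, 149, 168 and 154 at 5 µM (0.45 ± 0.05, adjusted p = 4.45e-10). COX6B1, on the intermembrane side, had 192, 195, 206 and 193, then 232, 221, 227 and 238, then 260, 234, 257 and 237 CPM (0.33 ± 0.05, adjusted p = 8.26e-08). COX8A had 152, 138, 129 and 138, then 165, 156, 145 and 176, then 170, 172, 160 and 168 CPM (0.26 ± 0.05, adjusted p = 5.02e-05). The 3 groups of COX6A1 were apart, whereas the dose groups of COX6B1 and COX8A overlapped. The step of COX6B1 from 2.5 to 5 µM passed at an adjusted p of 0.0455 and was lost on leaving out control library 1, 2 or 4, 2.5 µM library 1, 2 or 3, or 5 µM library 1 or 3 (adjusted p 0.0587 to 0.175). NDUFA4, a subunit of complex IV despite its name, rose between the doses, from 125 to 139 CPM at 2.5 µM to 155 to 170 at 5 µM (0.29 ± 0.05, adjusted p = 4.94e-06).

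Several complex IV subunits exist as isoforms, and the common form carried the counts in each pair. COX4I1 had 474, 461, 526 and 462 CPM in controls, 473, 463, 479 and 487 at 2.5 µM, and 551, 507, 543 and 525 at 5 µM (0.15 ± 0.05, adjusted p = 0.00415, with overlapping groups). COX4I2, the form known from lung and from low oxygen, had 0 counts in the controls and at 2.5 µM and 3 counts at 5 µM; a count of 0 over the 4 controls allows up to 0.0582 CPM, counting error only. COX6A2, the muscle form, had 0 counts in all 12 libraries. COX7A1, also a muscle form, had 0 counts in controls and at 2.5 µM and 1 at 5 µM, while COX7A2 rose from 130 to 142 CPM in controls to 156 to 161 at 5 µM (0.23 ± 0.05, adjusted p = 3.42e-05). COX8C had 1 count in all and COX7B2 had 2. COX6B2, the testis form, had 9, 3 and 17 counts over the 4 libraries of control, 2.5 µM and 5 µM. NDUFA4L2, known as a target of hypoxia-inducible factor 1, had 3, 2 and 12 counts. The last 2 members without a test, the read-through genes NDUFC2-KCTD14 and ATP5MF-PTCD1, had 0 and 3 counts in all. None of these 9 had enough counts to be tested.

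Promoter sequences were examined because the members are known to share binding sites for NRF1, for the ETS-family factor GABP and for YY1. A RefSeq window (GRCh38.p14, 250 bases before to 50 after the start) was matched to 72 of the 92 members and 66 of the 83 tested. The ETS motif CCGGAAG, searched on both strands like the others, was in 31.8% of the tested members and in 12.2% of the 27305 genes with a window. GCGCATGC, an NRF1 half-site repeat, was in 21.2% against 3.68%. The longer NRF1 consensus was in 24.2% against 6.98%, and it can overlap the former. AAGATGGCG, for YY1, was in 13.6% against 2.14%. ACGTG, the hypoxia response core, was in 25.8% against 24.9%. The 27305 genes were not limited to those with enough reads for a test, whereas the members compared were, so the 2 sets are unlike. Of members higher at 5 µM, 10 of 24 held the ETS motif, and of those lower, 5 of 25. Of those that did not pass, 6 of 17 held it. The other motifs split otherwise between the 24 higher and 25 lower members. The counts were 3 and 6 for the NRF1 half-site, 5 and 6 for the longer NRF1 consensus, 3 and 2 for YY1, and 3 and 6 for ACGTG. None of these differences was tested. By complex the ETS motif was in 5 of 32, 2 of 3, 3 of 7, 5 of 10 and 6 of 14 of the tested members with a window in complexes I to V.

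The bases upstream of the start are shown for the 3 leading increases of complex IV, each with an ETS match close to the start, for COX5A, which fell and holds none of the NRF1, ETS and YY1 motifs in its window, and for ATP5MC2. Capitals mark the matches to those motifs (CTTCCGG is the ETS motif on the other strand, and GCATGCGC the NRF1 half-site). Matches to ACGTG are not marked, and the COX5A bases shown hold it on both strands. The intervals are chr12:120437863-120438112 (plus strand) for COX6A1, chr19:35648073-35648322 (plus) for COX6B1, chr11:63974370-63974619 (plus) for COX8A, chr15:74938074-74938323 (minus) for COX5A and chr12:53676331-53676580 (minus) for the outermost of 3 listed starts of ATP5MC2.
COX6A1: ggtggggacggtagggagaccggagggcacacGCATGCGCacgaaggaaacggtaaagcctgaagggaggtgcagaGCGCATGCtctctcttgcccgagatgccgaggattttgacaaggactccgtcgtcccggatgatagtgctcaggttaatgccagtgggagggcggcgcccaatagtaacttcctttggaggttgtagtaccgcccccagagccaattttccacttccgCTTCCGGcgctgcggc
COX6B1: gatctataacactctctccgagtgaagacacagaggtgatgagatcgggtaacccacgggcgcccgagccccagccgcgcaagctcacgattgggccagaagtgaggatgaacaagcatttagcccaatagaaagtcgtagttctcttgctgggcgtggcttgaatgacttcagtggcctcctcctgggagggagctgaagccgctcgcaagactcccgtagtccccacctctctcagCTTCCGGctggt
COX8A: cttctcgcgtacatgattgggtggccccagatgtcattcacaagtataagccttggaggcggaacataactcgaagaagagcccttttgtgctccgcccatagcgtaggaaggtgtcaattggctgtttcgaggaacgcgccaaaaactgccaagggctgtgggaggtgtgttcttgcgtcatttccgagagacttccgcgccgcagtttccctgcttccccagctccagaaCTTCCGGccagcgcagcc
COX5A: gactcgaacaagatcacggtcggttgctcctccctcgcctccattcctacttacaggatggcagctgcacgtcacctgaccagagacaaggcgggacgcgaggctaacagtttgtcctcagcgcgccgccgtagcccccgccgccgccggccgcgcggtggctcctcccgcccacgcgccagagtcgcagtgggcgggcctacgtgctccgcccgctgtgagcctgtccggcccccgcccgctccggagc
ATP5MC2: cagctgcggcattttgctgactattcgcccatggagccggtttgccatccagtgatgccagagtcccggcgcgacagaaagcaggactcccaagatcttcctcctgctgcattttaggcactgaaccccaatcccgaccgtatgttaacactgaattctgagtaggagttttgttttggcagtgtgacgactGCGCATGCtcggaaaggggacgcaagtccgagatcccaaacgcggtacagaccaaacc
In the first 3 the ETS match lies within the last bases before the start, and COX6A1 also has 2 NRF1 half-site matches farther out. ATP5MC2, which fell most, has an NRF1 half-site match here. A match is only a match of letters. The windows shown are picked examples: NDUFB1 and NDUFB3 rose with no NRF1, ETS or YY1 match, and NDUFS1 and NDUFB7 fell with an ETS match in a listed window.

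At 2.5 µM, 16 members were higher than in controls, 25 were lower and 42 did not pass, where 59.1% of all genes changed, 30.7% higher and 28.5% lower. The members' median size of change was 0.12 on the log2 scale, against 0.30 for all genes, and 0 of them changed 2-fold, against 10.1% of all genes. The 4 and 4 values did not overlap for 34 members, against 50.5% of genes. Complex V had 4 higher and 10 lower of 20 (median -0.12). Complex I had 6 and 10 of 37, complex IV 4 and 4 of 12, complex III 1 and 1 of 10, and complex II 1 and 0 of 4. By library size the members' split was 21 higher and 20 lower, complex I at 8 and 8, complex III at 2 and 1, and complex V at 5 and 8.

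From 2.5 to 5 µM, 27 members were higher, 33 lower and 23 did not pass, where 68.4% of all genes changed, 33.6% higher and 34.8% lower (by library size, 35 higher and 22 lower). The median size of these changes was 0.17, against 0.37 for all genes; 0 members changed 2-fold, against 13.1% of genes, and 52 did not overlap, against 62.1%. Complex IV had 7 higher and 1 lower here, and complex V had 2 and 12 (4 and 7 by library size). The 3 comparisons share libraries, so their calls are not independent. Lower in both steps were 16 members, 9 of them in complex V and 5 in complex I. By upper quartile scaling, as by library size, only 7 genes of complex V were lower in the second step. ATP5MC1 (adjusted p 0.126 and 0.329) and UQCRC2 (adjusted p 0.0584 and 0.213), both among the 16, lost that step under these scalings. Higher in both steps were 5, namely NDUFA9, SDHC, COX6A1, COX6B1 and ATP5MG. Of these, COX6B1 and ATP5MG lost the second step on leaving out single libraries, as given above. A further 30 members passed in the second step and not in the first. How many of all genes tested passed in both steps, or in the second only, was not counted. These step counts therefore cannot be read as particular to the members or to a complex.

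For 9 members the 2 steps went in opposite directions, with the shared 2.5 µM libraries at the peak or the trough. The share of all genes tested with opposite steps was not counted, so this number has no background beside it. NDUFA1, a small membrane-arm subunit, had 85.9, 88.2, 86.6 and 92.7 CPM in controls, 77.1, 68.4, 71.5 and 73.3 at 2.5 µM, and 88.8, 89.3, 93.8 and 98.7 at 5 µM. All 2.5 µM values were below the rest (-0.28 ± 0.05, adjusted p = 2.59e-05, then 0.35 ± 0.05, adjusted p = 4.71e-07). NDUFB9 went the other way, with 124, 124, 136 and 142, then 145, 143, 156 and 147, then 119, 122, 121 and 112 CPM (0.17 ± 0.05, adjusted p = 0.00473, then -0.32 ± 0.05, adjusted p = 1.37e-06). At 5 µM NDUFB9 was just under the controls (-0.15 ± 0.05, adjusted p = 0.00833), a call lost by upper quartile and library size scaling (adjusted p 0.0597 and 0.767). NDUFB6 and COX7B dipped at 2.5 µM, with means of 64.3, 56.0 and 63.0 CPM and of 227, 197 and 221 CPM. These 4 kept both calls under each of 20 alternative settings. NDUFA10 (118, 133 and 120 CPM), NDUFA12 (117, 128 and 116), ATP5MF (117, 128 and 117), NDUFS7 (89.4, 80.9 and 90.5) and COX7C (192, 177 and 198) lost at least 1 of theirs under 1 to 8 of the 20.

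**Figure D3:**
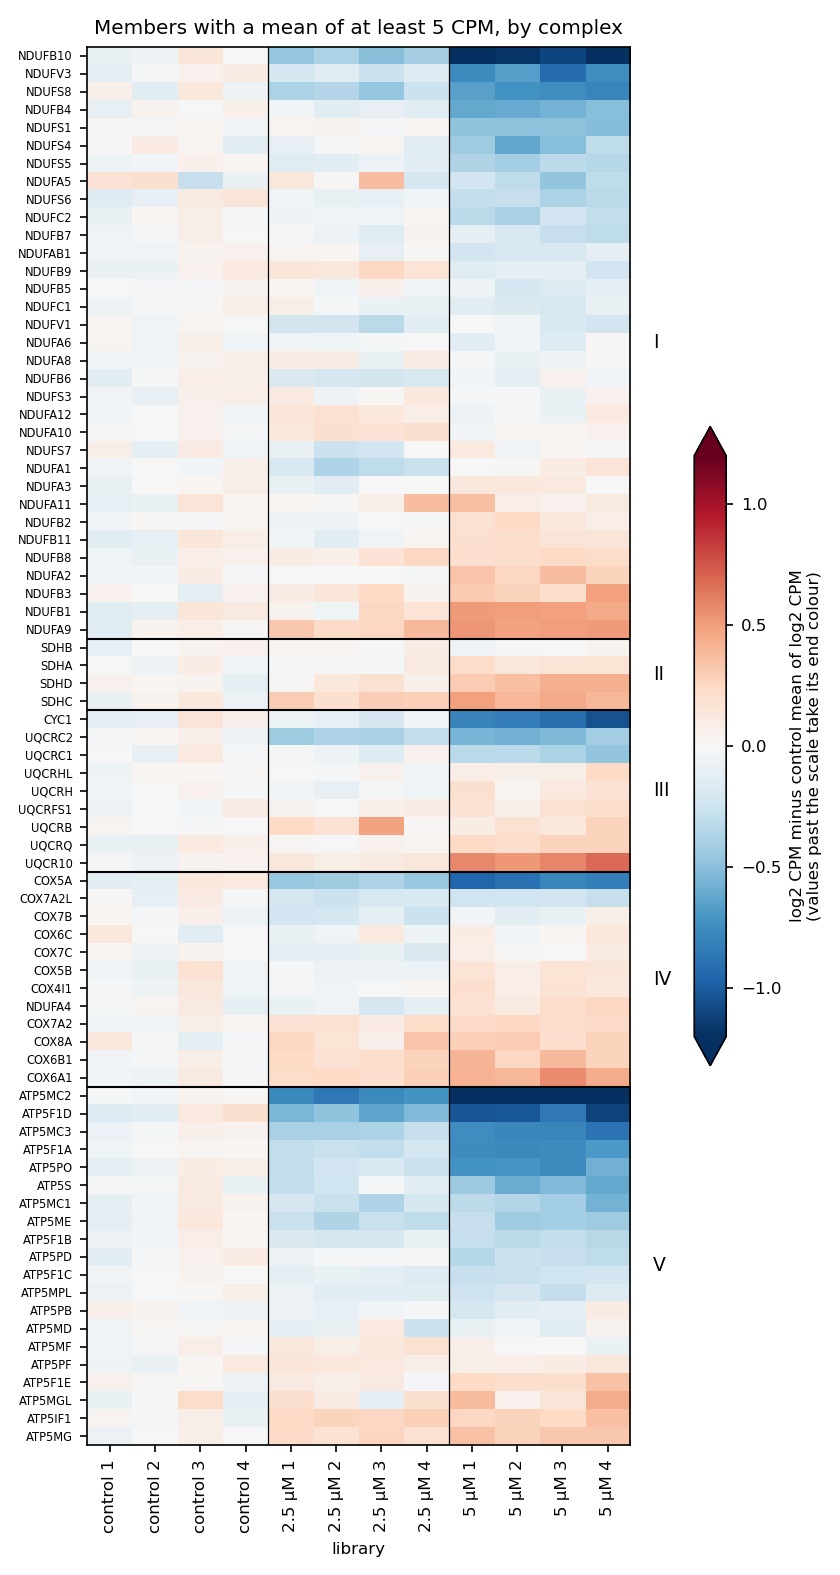
Log2 CPM of the members with a mean of at least 5 CPM in each of the 12 libraries, 1 of these members left out, minus the mean of the 4 controls, on a scale that ends at 1.2 either way. Rows are ordered within complexes by their change at 5 µM; complexes I and V open with deep blue rows at 5 µM, and a few rows such as NDUFA1 differ at 2.5 µM only.

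The summed mRNA of each complex stayed within 77.7% to 114% of the control mean. Complex V had 5386, 5527, 5844 and 5697 summed CPM in controls, 4968, 4911, 4949 and 5119 at 2.5 µM, and 4395, 4317, 4358 and 4377 at 5 µM. This was a step down to 88.8% and 77.7% of the control mean. ATP5F1A and ATP5F1B weigh heavily in it, with means of 1014 and 2008 of the 5613 CPM in controls, and 605 and 1622 of 4362 at 5 µM. Complex I stood at 96.1% and 89.3%, complex III at 95.5% and 91.4%, complex IV at 98.2% and 106%, and complex II at 104% and 114%. The complex III sum at 5 µM was thus below control, although 6 of its genes were called higher and 3 lower. All members together stood at 93.8% and 88.7%, with groups of 13531 to 14591, 12909 to 13396 and 12210 to 12502. The direction of the smaller sums depended on scaling: by library size, complex III at 5 µM was at a log2 ratio of 0.01 in place of -0.13, and complex IV at 2.5 µM at 0.02 in place of -0.03.

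Against these sums the mitochondrially encoded subunits of the same complexes fell steeply. All 13 mitochondrial mRNAs were lower at both doses, and 12 of 13 were higher at 5 than at 2.5 µM, MT-ND6 being lower. For complex IV, the ratio of summed mitochondrial to summed nuclear CPM was 5.17, 5.32, 4.96 and 5.26 in controls, 1.35, 1.15, 1.42 and 1.31 at 2.5 µM, and 1.87, 1.87, 1.71 and 1.72 at 5 µM. For complex I it averaged 3.42, 0.929 and 1.5, for complex III 0.464, 0.111 and 0.259, and for complex V 0.229, 0.0922 and 0.172. The 3 groups were apart in every complex, and in each the lowest ratios were at 2.5 µM. For complex V at 5 µM the ratio was back to 75.3% of control, with both the mitochondrial sum (58.6% of control) and the nuclear sum (77.7%) reduced. Each ratio is taken within a library and does not depend on scaling between libraries. It shows unequal change only, and the part that poly-A selection plays was not tested.

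**Figure D4:**
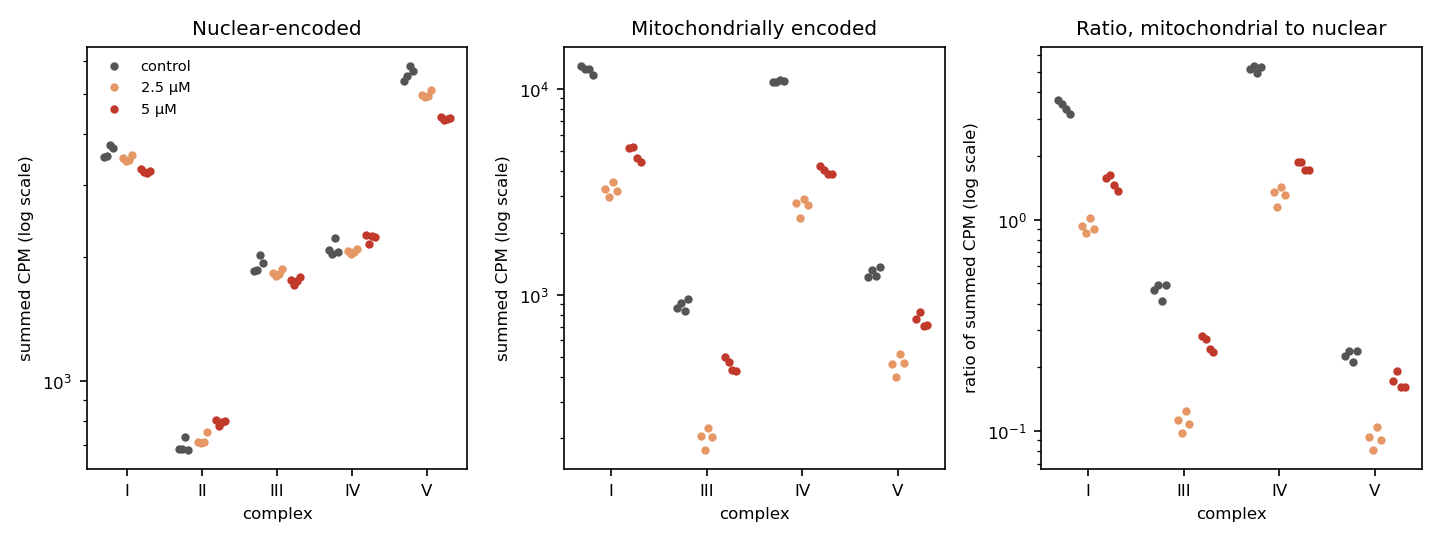
Summed CPM of nuclear-encoded (left) and mitochondrially encoded (middle) subunits by complex, and their ratio (right), all on log axes; each point is 1 library. The nuclear sums of a complex lie close together while the mitochondrial sums and ratios are lowest in the 4 libraries at 2.5 µM.

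The genes that assemble and serve the chain were counted from fixed lists at 5 µM against control, where 38.7% of all genes were higher and 39.4% lower. Assembly factors of complex I were 3 higher and 12 lower of 18 (4 and 9 by library size); NUBPL, which delivers iron-sulfur clusters, fell by 0.87 on the log2 scale (adjusted p = 6.45e-11), and COA1 fell by 0.40 (adjusted p = 1.14e-08). Complex III factors were 1 higher and 4 lower of 6. The rise was UQCC1, needed for cytochrome b, from 58.3 ± 4.44 to 145 ± 5.14 CPM (1.31 ± 0.05, adjusted p = 3.81e-21), while its partner UQCC2 fell by 0.83 (adjusted p = 8.95e-15). Complex IV factors were 5 higher and 12 lower of 21 (6 and 6 by library size), with COA4 at -1.25 (adjusted p = 2.14e-18) and LRPPRC, which stabilizes mitochondrial mRNAs, at -0.91 (adjusted p = 1.61e-17). Those of complex II were 1 and 2 of 4, and those of ATP synthase 2 and 2 of 4. ATPAF2, a chaperone of F1, fell from 24.7 ± 0.970 to 13.3 ± 1.21 CPM.

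Electron carriers and their makers were 5 higher and 6 lower of 13 (7 and 5 by library size), against 38.7% higher and 39.4% lower of all genes. COQ4 fell (-0.99, adjusted p = 1.06e-15) and COQ8A, a kinase-like protein of coenzyme Q synthesis, rose (1.08, adjusted p = 2.81e-14). Cytochrome c itself (CYCS) fell from 202 ± 12.6 to 124 ± 4.6 CPM. Carriers of ADP, phosphate and ions were 1 higher and 6 lower of 7, led by the porins VDAC1 (-1.41, adjusted p = 2.98e-24) and VDAC3 (-1.36, adjusted p = 1.62e-21). Genes of the tricarboxylic acid cycle were 3 higher and 6 lower of 13 (6 and 4 by library size), with IDH3G at -1.06 (adjusted p = 2.94e-17) and SUCLG2 at -1.07 (adjusted p = 1.30e-16). Of 12 transcription regulators of respiratory genes, 7 were higher and 5 lower (7 and 3 by library size). The 2 alternative partners of the DNA-binding subunit GABPA moved apart: GABPB1 went from 54.5 ± 3.97 to 25.3 ± 2.16 and 14.1 ± 0.962 CPM (-1.94 ± 0.08 at 5 µM, adjusted p = 3.54e-21), and GABPB2 from 9.31 ± 0.836 to 13.7 ± 1.07 and 24.6 ± 2.04 (1.4 ± 0.09, adjusted p = 2.54e-15). The coactivator PPARGC1B fell by 1.31 (adjusted p = 3.43e-16), and PPARGC1A was higher at both doses, at 11.1, 24.4 and 18.9 CPM. Of the factors whose motifs were searched above, NRF1 was lower at 5 µM (-0.27, adjusted p = 0.00509), while GABPA (0.48, adjusted p = 4.03e-05) and YY1 (0.24, adjusted p = 7.36e-06) were higher.

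Many members have pseudogene copies in the genome, and the rows of these copies were set beside the members as a check on counting. There were 159 such rows for 46 members, and in 18 members they held at least 20% of the member's counts. Of 39 pseudogene rows with at least 1000 counts, 36 had a log2 fold change at 5 µM within 0.2 of that of the member. For instance ATP5MC2P4 was at -1.61 ± 0.06, NDUFB10P1 at -1.11 ± 0.12 and COX6A1P2 at 0.46 ± 0.05, beside -1.69, -1.19 and 0.45 for the members. COX6A1P2 held 102% of the counts of COX6A1. Reads of near-identical copies cannot be assigned with certainty, so the level of such members is uncertain, and the row and its copy are not independent. The exceptions among the 39 were NDUFV2P1, ATP5MFP5 (-0.32 beside -0.01) and UQCRBP2 (-0.16 beside 0.17). A tolerance of 0.2 is wide beside the members' median change of 0.25, so it says little of members with small changes. Of the 56 tested rows, some under 1000 counts differed more, such as NDUFB4P11 (3.88 beside -0.58) and COX5BP6 (-0.99 beside 0.14). Others did not, such as COX6CP1 (0.08 beside 0.05).

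**Figure D5:**
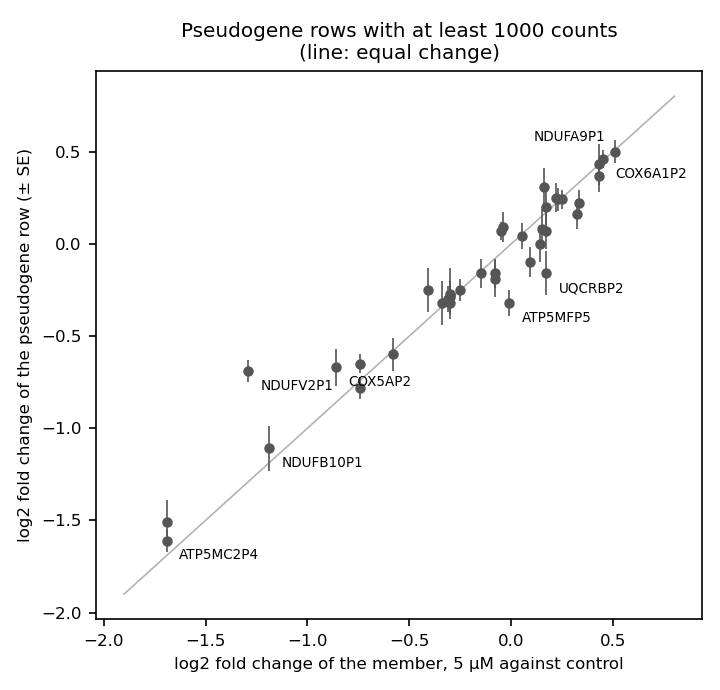
Log2 fold change at 5 µM against control of pseudogene rows with at least 1000 counts (vertical, ± SE) against that of the parent member (horizontal); the line marks equal change. All but 3 of the 39 points lie within 0.2 of the line, and NDUFV2P1 lies farthest from it.

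The 4 tested members with a mean under 5 CPM have to be read apart. NDUFV2 held 198 counts in all and its pseudogene NDUFV2P1 11915. NDUFV2 was at 1.87 ± 0.457, 1.17 ± 0.163 and 0.773 ± 0.130 CPM (-1.29 ± 0.26, adjusted p = 4.48e-05), and NDUFV2P1 changed by -0.69 ± 0.06 (adjusted p = 4.44e-13). NDUFA7 (0.606 to 1.66 CPM, 1.45 ± 0.29, adjusted p = 3.11e-05), NDUFA13 (1.78 to 2.74 CPM, 0.59 ± 0.21, adjusted p = 0.0111) and UQCR11 (1.28 to 1.18 CPM, -0.13 ± 0.27, adjusted p = 0.660) are the others. In GENCODE 29, 82.9%, 75.9%, 44.1% and 17.7% of the exonic bases of NDUFV2, NDUFA7, NDUFA13 and UQCR11 are shared with another gene on the same strand. Similar shares were found in better counted members: NDUFB8 (71.7% shared, mean 45.0 CPM), ATP5PO (70.3%, 108 CPM) and NDUFA11 (67.0%, 28.7 CPM). Reads in shared exons may be counted for neither gene; whether this sets the low counts was not tested. The call of NDUFA13 was lost without control library 1 or 5 µM library 1 (adjusted p 0.0571 and 0.0600). Also uncertain are 2 rows: UQCRHL and ATP5MGL, near copies of UQCRH and ATP5MG. Without the 4 low members, 27 were higher and 34 lower at 5 µM.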

How the data were processed

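Poly-A mRNA of 12 cultures of 1 cell line was sequenced, in 3 groups of 4 libraries that the labels call biological replicates. The authors deposited raw read counts for each Ensembl gene as whole numbers, per the file headers and values. Per the submitters' processing notes, the build was GRCh37 and the tools included STAR 2.4.1d, featureCounts 1.4.6 and edgeR 3.8.6. How strand and multi-mapping reads were handled, and which gene models were used, is not stated in the labels, so overlapping genes and copies cannot be fully told apart. Symbols came from GENCODE 29 for 51989 of 63152 genes (99.3% of counts).

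Genes were filtered with filterByExpr, and edgeR 4.0.16 under R 4.3.3 gave the tests (TMM, robust glmQLFit, glmQLFTest). The 12 libraries entered 1 fit with 9 residual degrees of freedom, and Benjamini-Hochberg adjustment ran over 16839 genes with a threshold of 0.05. SE is the size of the log2 fold change divided by the square root of F, and CPM is TMM-scaled. The steps were tried on simulated data in which only a small part of the genes changed. In the data 78.2% of genes changed at 5 µM, so the simulation does not bear on the choice of scaling. Library sizes and the biological coefficient of variation of 5.43% set the precision. Alternatives were other scalings, filters, DESeq2 1.42.0, a fit of the 2 groups alone, a block for replicate number, and leaving out each library in turn. The genes named with values in each library were the largest changes of each complex with no overlap between groups, the isoform sets, the c-subunit genes, ATP5IF1 and members with opposite steps. Others were named for their role after their values were seen. The members and all lists were chosen with earlier results of these data known. Values of 1 member are not reported here by name; it stays in the counts and sums.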

Additional observations from a re-analysis of the deposited data

Results flagged for a closer look

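In 5 of 153 groups of 4 values checked, 1 library stood apart from the other 3 by Dixon's criterion; chance flags about 1 in 20 groups. ATP5MC3 was at 200 CPM in 2.5 µM library 4, against 185 to 187 in the others. SDHA was at 430 CPM in the same library, against 393 to 397, and the complex II sum there was 751, against 708 to 711. SDHD was at 85.5 CPM in control library 4, against 94.0 to 95.6. The complex II sum was 731 in control library 3, against 680 to 684.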

How the results depend on the processing

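Of the 20 alternatives, each kept the number of members changed, higher or lower within 1.5 times: 59 to 68 members changed at 5 µM against control, 35 to 42 at 2.5 µM and 53 to 61 between the doses. Upper quartile scaling moved the medians at 5 µM against control to -0.03, 0.32, 0.17 and 0.19 for complexes I to IV, and library size scaling to 0.06, 0.41, 0.26, 0.28 and -0.14 for complexes I to V. Without a count filter the complex IV median was 0.20. Library size gave medians of 0.02, 0.11 and 0.02 for complexes I to III at 2.5 µM against control. Between the doses upper quartile gave -0.06, 0.22, 0.17, 0.19 and -0.08 for complexes I to V, and library size -0.03, 0.25, 0.20, 0.22 and -0.05. The log2 ratios of summed CPM at 5 µM to control were -0.11, 0.24, -0.08, 0.14 and -0.32 for complexes I to V with upper quartile scaling, while library size scaling gave -0.03, 0.33, 0.01, 0.22 and -0.23; at 2.5 µM library size gave -0.01, 0.10, -0.02, 0.02 and -0.12. Of single genes, ATP5MF (0.13), NDUFA12 (0.12) and SDHB (0.13) turned upward at 5 µM against control by library size; none of the 3 passed in the main test. A change of scaling shifts all genes alike by construction; without a count filter the cause of the move was not tested. Samples with the same replicate number did not deviate together (0 of 12 pairs of libraries correlated above 0.1, and 1 of 12 libraries correlated best with its own number). With replicate number as a block, 64, 40 and 57 members changed at 5 µM against control, 2.5 µM against control and between the doses, against 64, 41 and 60 without it, and COX6B1 between the doses did not pass (adjusted p = 0.0547). The counts of low members limit what can be said of them.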
